A study of Mus musculus with 64 samples.

Results

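The metallothionein genes Mt1 and Mt2, their metal-responsive transcription factor gene Mtf1, and 5 genes for metal transporters (Slc30a1, Slc30a10, Slc39a4, Slc39a5 and Slc39a14) were followed in RNA-seq read counts from 64 mouse samples. These 8 genes were chosen by name, and all 8 were found among the 23338 genes of the count files. Every sample came from mice of the C57BL/6 strain (C57BL/6 J in the study's methods), and no genetic change or treatment is named for any of them. The samples were 12 single eight-cell embryos (6 male, 6 female) flushed 2.5 days after natural mating, 4 lines of embryonic stem cells kept in 2i medium (2 male, 2 female), 24 fetal livers of late gestation (12 male, 12 female) and 24 livers of adults aged 15 to 20 weeks (12 male, 12 female). Each ES cell sample is 1 line, derived from an eight-cell embryo and grown with inhibitors of MEK and GSK3, and all cells of 1 embryo made 1 library. The embryos came from 4 litters, so some shared a litter, and no sample is tied to its litter in the labels. The study counts 12 males and 12 females at each liver stage, and litters of the fetal livers are not given in the sources used here. Samples were tested as independent, so p-values measure the spread between these samples. The embryo libraries were amplified with a single-cell protocol and all others were made from total RNA with a stranded kit, so developmental stage and protocol cannot be told apart wherever embryos are set beside the other stages.

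Metallothioneins are small, cysteine-rich proteins that bind zinc and copper in the cell and release them on demand. When free zinc rises, MTF1 binds metal response elements in the promoters of Mt1, Mt2 and Slc30a1 and raises their transcription. The SLC30 proteins carry zinc out of the cytosol, with SLC30A1 acting at the plasma membrane, while SLC30A10 is chiefly an exporter of manganese. The SLC39 (ZIP) proteins bring metal into the cytosol: SLC39A4 takes up dietary zinc in the gut, SLC39A5 sits on the basolateral face of gut, pancreas and liver cells, and SLC39A14 carries zinc, manganese and iron into hepatocytes and is an inflammation-responsive gene. In rodent liver, metallothionein is known to be abundant before birth and low in the resting adult.

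Mt1 and Mt2 are neighbours on mouse chromosome 8. In the GENCODE vM21 annotation of GRCm38 (the mm10 build), Mt2 (ENSMUSG00000031762.7) lies at chr8:94172664-94173568 and Mt1 (ENSMUSG00000031765.8) at chr8:94179082-94180327, both on the plus strand with 5513 bases between them. The longest stretch shared base for base by their transcripts was 20 bases. The promoters of both genes are shown with that of the exporter gene Slc30a1, because these are the 3 members for which a metal response element is textbook knowledge. The sequences are RefSeq's for GRCm38.p6, from 250 bases before to 50 after the annotated start, and capitals mark each match, on either strand, to TGCACNC or TGCGCNC, the core of the metal response element.
Mt1, chr8:94178839-94179138, plus strand: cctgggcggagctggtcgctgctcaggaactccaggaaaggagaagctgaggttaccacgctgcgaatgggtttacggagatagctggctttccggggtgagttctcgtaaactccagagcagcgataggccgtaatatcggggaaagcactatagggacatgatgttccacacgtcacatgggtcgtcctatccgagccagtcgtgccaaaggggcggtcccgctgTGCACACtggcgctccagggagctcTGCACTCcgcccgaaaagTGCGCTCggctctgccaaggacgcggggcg
Mt2, chr8:94172368-94172667, plus strand: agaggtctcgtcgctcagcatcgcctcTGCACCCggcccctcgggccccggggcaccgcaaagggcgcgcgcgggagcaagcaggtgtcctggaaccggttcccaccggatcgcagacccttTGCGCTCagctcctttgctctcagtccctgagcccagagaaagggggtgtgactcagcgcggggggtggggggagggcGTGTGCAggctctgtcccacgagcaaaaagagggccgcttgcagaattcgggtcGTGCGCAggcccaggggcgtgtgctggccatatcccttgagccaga
Slc30a1, chr1:191906531-191906830, plus strand: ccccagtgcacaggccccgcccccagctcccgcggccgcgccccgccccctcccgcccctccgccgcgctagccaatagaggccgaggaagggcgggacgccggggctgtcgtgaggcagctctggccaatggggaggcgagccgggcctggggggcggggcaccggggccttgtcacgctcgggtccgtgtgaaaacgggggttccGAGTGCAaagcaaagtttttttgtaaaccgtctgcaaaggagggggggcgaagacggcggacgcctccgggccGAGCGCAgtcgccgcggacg
The Mt1 window held 3 matches, the Mt2 window 4 and the Slc30a1 window 2, none overlapping. Of 32851 promoters of the same length, 25.7% held at least 1 match, 7.11% at least 2, 1.97% at least 3 and 0.517% at least 4. Slc30a10 had 3 matches, a pair of them overlapping on opposite strands. Mtf1 had none, and the promoters listed for Slc39a5 held 1 and 0. The Mt2 and Slc30a1 windows each held 1 match to TGACNNNGC, the core of the antioxidant response element, found in 12.4% of all promoters, and the Mt1 window held none. The Slc39a5 promoter without a metal response match held 2, and 0.986% of all promoters held at least 2. These are matches of letters only. The windows follow the annotated starts, and the Mt1 matches at bases 3 and 21 lay after that start. A window without a match says nothing of the bases outside it.

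Total reads on genes ranged from 4659656 to 7725432 in the embryos, from 9857929 to 10386931 in the ES cells, from 5145371 to 8499603 in the fetal livers and from 1567583 to 4757610 in the adult livers. At those depths 3 reads, taken as the detection floor of 1 library, correspond to 0.388 to 0.644 CPM, the count scaled to a common library size, in embryos and to 0.631 to 1.91 CPM in adult livers. Floors cover counting error only. The labelled tissues carried their markers: summed hepatocyte markers reached 21690 CPM or more in every fetal liver and 33390 CPM or more in every adult liver, against at most 68.1 CPM in an embryo and 0.722 CPM in an ES cell line. A set of 5 fetal livers (males 11 and 12, females 14, 15 and 24) stood apart, with summed pancreas or intestine markers at over 5 times the fetal median. In 8 adult livers, 4 of each sex, fewer than 40% of mapped reads lay on genes. Fetal males 9 and 11 were also under 40%, and no fit left those 2 out as a set. Results that rest on the set of 5 fetal or of 8 adult livers are given with and without it where the call changed.

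Mt1 and Mt2 were the most abundant of the 8 genes per base in embryos, ES cells and fetal liver, and both were far lower in adult liver. Mt1 had 162 to 308 CPM in the 12 embryos, with a median of 252 CPM. It had 222 and 219 CPM in the male ES cell lines and 168.5 and 174 CPM in the female lines. In fetal liver Mt1 ran from 161 to 445 CPM, with a median of 310 CPM. These ranges overlap, and none of the 40 samples of those stages reached down to the adult livers. Adult livers had 1.60 to 75.9 CPM of Mt1, with a median of 25.9 CPM. Mt2 followed with 105 to 191 CPM in embryos, 126 to 204 CPM in ES cells and 57.3 to 274 CPM in fetal liver. In the adult, Mt2 fell to between 0 and 16.7 CPM, and 3 male livers had no Mt2 read at all.

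**Figure D1:**
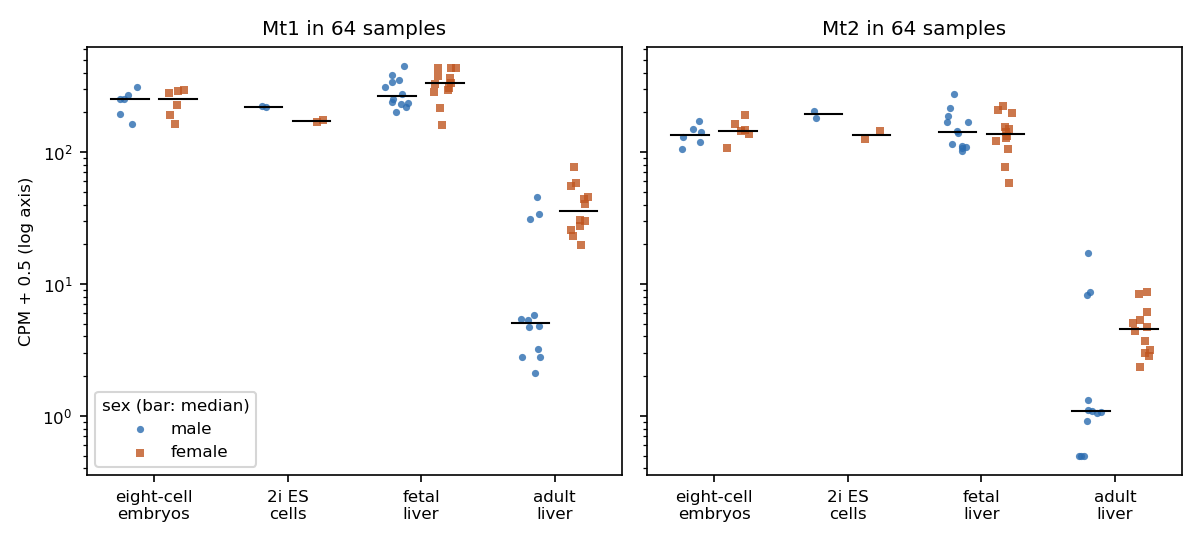
CPM + 0.5 of Mt1 (left) and Mt2 (right) on a log axis, with 1 point per sample, circles for males, squares for females and a bar at the median of each sex. All 24 adult livers sit below all 24 fetal livers for both genes, and 3 adult males stand above the other 9.

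Between genes, levels were compared only as CPM per kilobase of merged exons (RPKM). In embryos the order of median RPKM was Mt2 (242), Mt1 (203), Slc39a4 (59.1), Mtf1 (10.7), Slc39a14 (4.43) and Slc30a1 (0.0895). Mt2 exceeded Mt1 in 12 of 12 embryos, although the ranges of the genes overlapped across embryos. ES cells kept Mt2 (276) above Mt1 (158), followed by Slc39a4 (20.9) and Slc30a1 (10.4), with each range clear of the next. In fetal liver Mt1 (249) and Mt2 (238) could not be ordered, since Mt1 was higher in 12 of 24 livers. Behind them came Slc39a5 (48.4), Slc39a14 (40.6), Slc39a4 (25.7), Slc30a10 (19.8), Slc30a1 (11.8) and Mtf1 (4.13 RPKM). The adult order differed: Slc39a14 (38.3) led, then Mt1 (20.8), Slc39a4 (16.01), Slc30a10 (14.2), Slc30a1 (12.8), Mt2 (4.35), Mtf1 (2.81) and Slc39a5 (0.356 RPKM). Among adult neighbours in that order only Mtf1 and Slc39a5 had ranges that did not meet. The merged exons of Mt1 span 1246 bases because the annotation includes a form that keeps the introns, and over its 549-base CCDS transcript the Mt1 medians became 460 RPKM in embryos, 358 for ES cells, 564 for fetal and 47.3 for adult liver, each above the Mt2 median over merged exons, so the order of the pair rests on the length used.

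Mtf1, the sensor that binds zinc and drives the metallothionein genes, had its highest median level in embryos. Its CPM ran from 48.0 to 139 in embryos, from 27.6 to 35.1 among ES cell lines, from 23.8 to 47.1 among fetal livers and from 15.1 to 37.9 among adult livers. The zinc exporter gene Slc30a1 had 0 reads in 4 of 12 embryos and at most 11.6 CPM in the others, against 52.3 to 54.7 CPM in ES cells and 50.4 to 89.2 CPM over all 48 livers. Slc30a10, the manganese exporter gene, had 0 reads in all 12 embryos and 1.05 to 4.87 CPM in ES cells, against 102 to 146 CPM in fetal and 54.1 to 105 CPM in adult liver. The ZIP gene Slc39a4 was detected everywhere, from 89.5 to 225 CPM in embryos down to 22.5 to 78.2 CPM in adult liver. Slc39a5 was a fetal liver gene in this series, with 80.7 to 158 CPM there and no more than 0.737 CPM in an embryo, 0.479 CPM in an ES cell line and 3.32 CPM in an adult liver. Slc39a14 had 6.42 to 53.6 CPM in embryos and 14.02 to 25.5 CPM in ES cells, then 150 to 313 CPM in fetal and 165 to 367 CPM in adult liver.

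**Figure D2:**
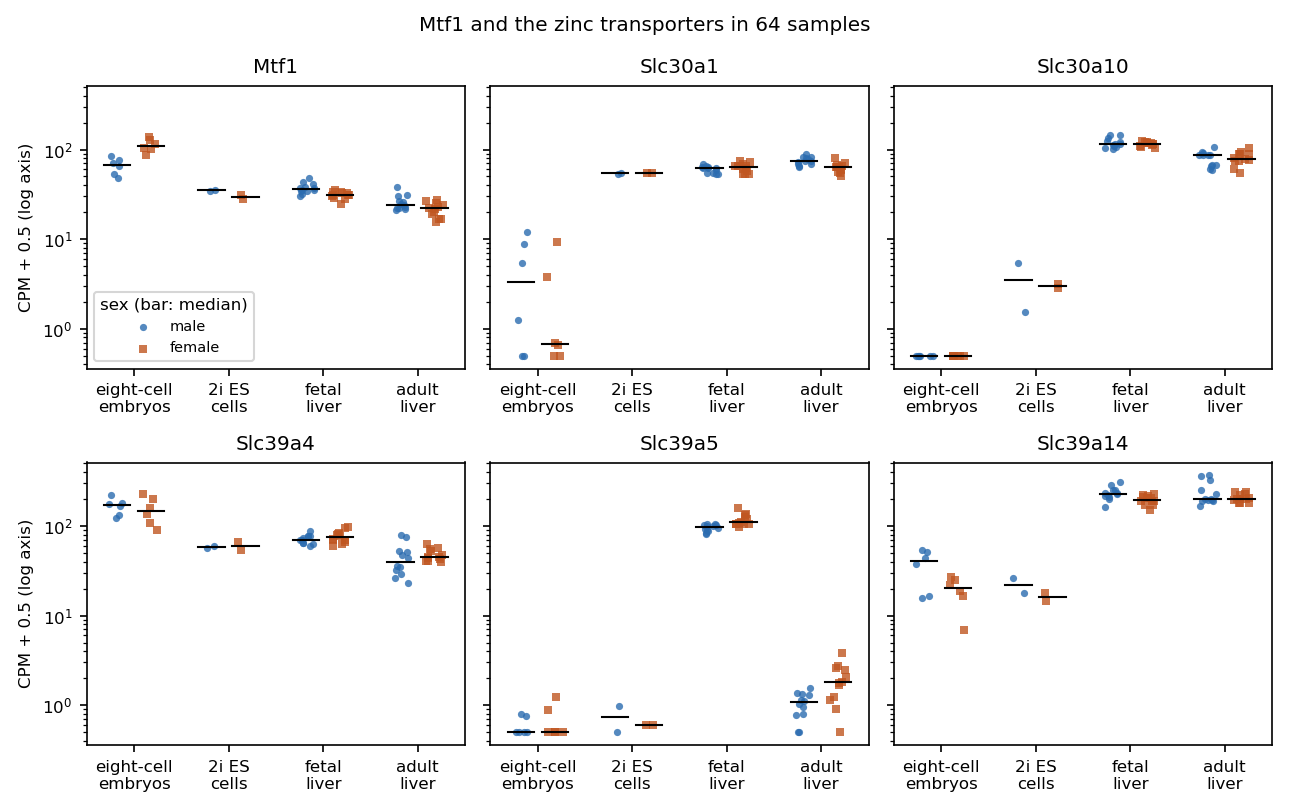
CPM + 0.5 of Mtf1 and the 5 transporter genes on a log axis, with 1 point per sample, circles for males, squares for females and a bar at the median of each sex. Slc39a5 is high in fetal liver alone, and Slc30a10 and Slc39a14 are high in both kinds of liver.

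Adult liver was compared with fetal liver by the edgeR quasi-likelihood test across all genes, with sex as a covariate and a call at an adjusted p under 0.05 and an absolute log2 difference above 1. Of 8 members tested, 3 fell and 0 rose, where 42.6% of all 12647 genes tested were called, 23.2% falling and 19.4% rising. Slc39a5 fell by 6.15 on the log2 scale (SE 0.11, adjusted p = 1.1e-46), which is 71.0-fold. Mt2 fell by 4.92 (SE 0.26, adjusted p = 8.6e-23), or 30.3-fold, and Mt1 fell by 3.21 (SE 0.25, adjusted p = 3.2e-16), or 9.27-fold. For each of these 3 genes the highest adult liver lay below the lowest fetal liver, as it did for 38.3% of all genes. Slc39a5 had 0 to 9 reads in an adult liver and Mt2 had 0 to 37. Neither gene passed the filter in adult livers alone, so the size of their folds is poorly fixed. Slc30a1 was 0.73 higher (SE 0.05, adjusted p = 3.1e-19) and Slc39a14 was 0.61 higher (SE 0.07, adjusted p = 4.1e-11), both short of the fold threshold. Mtf1 differed by 0.03 (95% interval -0.10 to 0.15), Slc30a10 by 0.01 (-0.10 to 0.12) and Slc39a4 by -0.13 (-0.30 to 0.05). Scaling by library totals alone moved the median of all genes from -0.04 to -0.61, and Mtf1 (-0.54), Slc30a10 (-0.56) and Slc39a4 (-0.69) moved with it, so whether these 3 genes fell depends on the scaling. Slc30a1 came to 0.16 and Slc39a14 to 0.05 (adjusted p = 0.505) on that scaling, so their higher adult levels rest on it too, whereas the 3 calls did not. The 24 fetal livers also held 1680 to 2640 CPM of summed erythroid markers and 1283 to 2502 CPM of neutrophil markers, against 15.4 to 196 and 0 to 7.57 CPM in adult livers. Fewer cells of a type and less RNA per cell cannot be told apart in such bulk samples, and the part of cell composition in these differences was not tested. None of the 3 calls changed without the 5 fetal livers that carried neighbouring-organ markers.

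**Figure D3:**
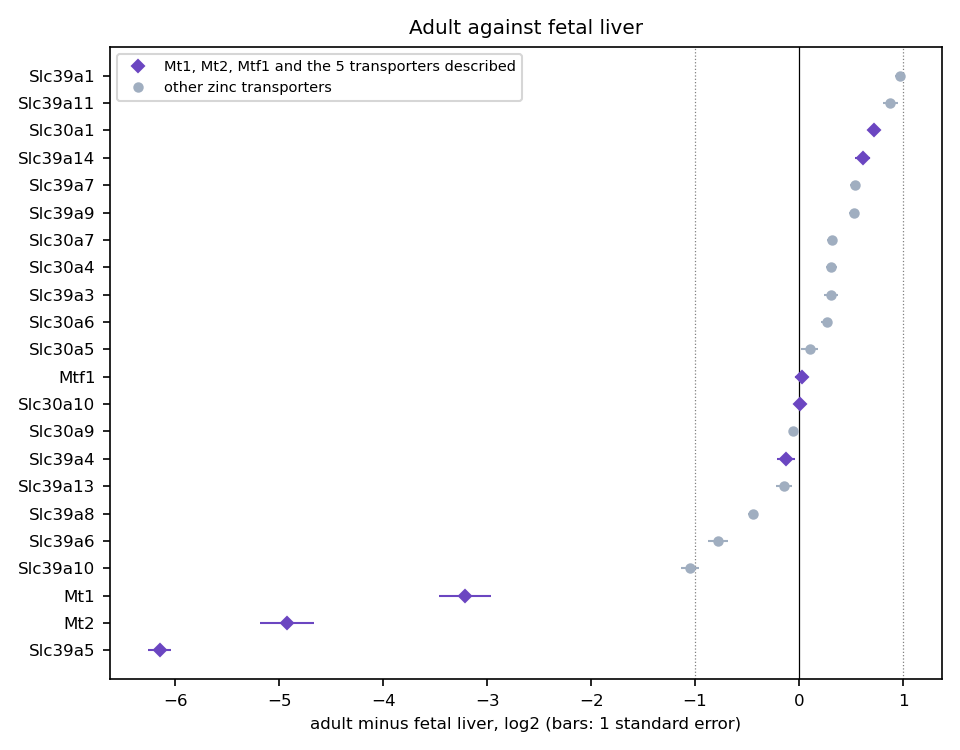
Log2 difference of adult minus fetal liver, with bars of 1 standard error, for the 8 members (diamonds) and the 14 other zinc transporter genes that passed the filter (circles). Dotted lines mark a log2 difference of 1 in either direction, and Mt1, Mt2 and Slc39a5 lie far to the left of every other gene shown.

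Among the other zinc transporter genes few passed the fold threshold in the same comparison. Of 19 listed, 14 were tested, 1 fell and 0 rose, where 23.2% of all genes tested fell and 19.4% rose. Their median log2 difference was 0.29 beside -0.04 over all genes. The gene that fell was Slc39a10, a ZIP gene that MTF1 represses in textbook accounts, with a log2 difference of -1.05 (SE 0.09). Slc39a8, a ZIP gene for zinc and manganese, had 87.9 to 133 CPM in fetal and 39.1 to 69.1 CPM in adult liver, a log2 difference of -0.45 (SE 0.04) that missed the fold threshold. Most of the others also passed the adjusted p alone, the largest being Slc39a1 (0.97, SE 0.04) and Slc39a11 (0.88, SE 0.07), named after their values were seen. Values on library totals, which lowered the median of all genes, are not given for these other transporter genes. Whether their differences rest on the scaling, as for several members above, was not examined. CPM is scaled within each stage, so CPM ranges of different stages and a log2 difference need not match. Among 4 further genes regulated by MTF1, Gclc, which encodes the catalytic subunit of glutathione synthesis, had a log2 difference of 1.962 (SE 0.07), while Ndrg1, a stress and hypoxia gene, fell by 2.98 (SE 0.13) and Slc39a10 fell as above. Both other metallothionein genes, Mt3 and Mt4, were without reads in every adult liver and had at most 4 reads in a fetal liver.

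Between ES cells and fetal liver 3 transporter genes were far higher in liver and the metallothioneins were not called. Of 8 members, 3 rose and 0 fell, beside 32.4% and 23.8% of 14333 genes, 56.2% in all. Slc39a5 was higher in fetal liver by 9.25 (SE 0.25, adjusted p = 7.7e-26), with 0 to 5 reads in the ES cell lines. It did not pass the filter in ES cells alone, so the size of that difference is poorly fixed. Slc30a10 was 5.54 higher (SE 0.17, adjusted p = 7.6e-24) and Slc39a14 3.67 higher (SE 0.15, adjusted p = 1.1e-20), or 12.7-fold. Mt1 was higher by 0.79 (SE 0.21, adjusted p = 9.4e-04), under the fold threshold, and Mt2 differed by -0.01 (95% interval -0.50 to 0.48). Slc39a4 (0.47), Slc30a1 (0.32) and Mtf1 (0.20) also passed the adjusted p without reaching the fold threshold. Of 16 other zinc transporter genes tested, 2 rose and 4 fell. The largest differences among them were in Slc39a8, higher by 9.72 (SE 0.20), and Slc30a2, a zinc transporter gene of secretory tissues, with a log2 difference of -5.35 (SE 0.67). Slc39a8 did not pass the filter in ES cells alone, nor Slc30a2 in fetal liver alone, so the size of both differences is poorly fixed.

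Between embryos and ES cells the direction was mixed. Of 6 members tested, 1 rose and 2 fell in ES cells, beside 31.4% and 21.5% of 12478 genes (52.9% in all), and the median of all genes was 0.44. Slc30a1 was 3.85 higher in ES cells (SE 1.15, adjusted p = 0.0085). It had 0 to 69 reads in an embryo, with 4 of 12 embryos at 0, and did not pass the filter in embryos alone. The size of its difference is therefore poorly fixed. Slc39a4 was 1.83 lower (log2 difference -1.83, SE 0.24, adjusted p = 5.2e-06) and Mtf1 1.77 lower (log2 difference -1.77, SE 0.24, adjusted p = 6.8e-06). Mt1 differed by -0.68 (SE 0.19, adjusted p = 0.0048), under the fold threshold, and Mt2 by -0.18 (SE 0.17, adjusted p = 0.38). DESeq2's size factors moved the median of all genes to 0.79 and the Mt2 difference to 0.17, so that the sign for Mt2 rests on the scaling. Slc30a10 and Slc39a5 did not pass the filter. Tested without it, Slc30a10 was called higher in ES cells (SE 0.97, adjusted p = 0.0018), with no fold given because all embryos were at 0 reads, and Slc39a5 was not called (adjusted p = 0.96). Of 16 other zinc transporter genes, 3 rose and 4 fell, among them Slc39a2, which had 0.911 to 63.98 CPM in embryos and 0.573 to 1.52 CPM in ES cells. All of these differences also separate the amplified single-cell libraries from the total RNA libraries.

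Mt1 was among the most variable genes between adult livers, and Mt1 and Mt2 were among the more variable between fetal livers. The gene-wise biological coefficient of variation from edgeR, the replicate spread left after sex and counting error, was 0.73 for Mt1 in adult liver, at the 99.9th percentile of 10372 genes. In fetal liver it was 0.24 for Mt1 and 0.32 for Mt2, at the 93.6th and 97.1st percentiles of 12930 genes. By contrast Mt1 (0.26) and Mt2 (0.25) ranked among the steadier genes between single embryos. They lay at the 8.57th and 6.70th percentiles of 9087 genes, where the common value over all genes was 0.71. The values themselves were near those of fetal liver, so the contrast lies in the ranks. Each rank is among genes of all levels, and Mt1 and Mt2 had 704 or more reads in every embryo. Slc30a10 in ES cells (0.46, 99.4th percentile) and Slc39a4 in adult liver (0.26, 94.0th percentile) were also variable for their stage, and Slc39a14 in embryos had 0.54, at the 51.4th percentile. Slc30a1 was uneven between embryos: embryos 1, 2, 4, 8 and 11 had 69, 52, 39, 49 and 24 reads, and the other 7 had 0 to 5 reads. Mtf1 and Slc30a1 in the livers lay between the 36.3rd and 60.7th percentiles.

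Male and female were compared within each stage by edgeR, with a call at an adjusted p under 0.1 and an absolute log2 difference above 0.5. In embryos 0 of 5 members tested passed, beside 0.264% of 9087 genes (0.044% higher and 0.22% lower in males), while 2 members had an unadjusted p under 0.05. Mtf1 had 70.7, 48.0, 52.1, 76.0, 64.3 and 84.0 CPM in the 6 male embryos and 127, 139, 114, 104, 86.2 and 100 CPM in the 6 female embryos. Every female embryo lay above every male, a separation shown in that direction by 0.396% of genes. The log2 difference of male minus female was -0.76 (SE 0.22), with an adjusted p of 0.39 from edgeR and 0.099 from DESeq2, which called it. Mtf1 belongs to the gene list that the study drew from these same embryos, so its direction here is not independent evidence. Slc39a14 had 15.3 to 53.6 CPM in males and 6.42 to 26.2 CPM in females, with overlapping ranges and a log2 difference of 0.94 (SE 0.44, adjusted p = 1.00). Mt1 (-0.01, 95% interval -0.40 to 0.39) and Mt2 (-0.12, -0.50 to 0.26) showed no detectable difference between the sexes.

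In ES cells Mt2 was higher in the male lines. Of 7 members tested 1 was called, beside 9.5% of 12678 genes (3.42% higher and 6.08% lower in males). Mt2 had 204 and 180 CPM in the male lines and 126 and 145 CPM in the female lines, a log2 difference of 0.51 (SE 0.11, adjusted p = 0.068). Mt1 differed by 0.36 (SE 0.07, adjusted p = 0.054), short of the fold threshold. With 2 lines a sex the ranges of a gene often separate, and they did so for 57.4% of all genes. Without male line 1, female line 3 or female line 4 the Mt2 call was lost, with log2 differences of 0.41, 0.41 and 0.61. Without male line 1 only the fold threshold was missed (adjusted p = 0.00014), and without the female lines the adjusted p rose to 0.54 and 0.42. Another metallothionein gene, Mt4, had 50 and 17 reads in the male lines and 2 and 1 in the female lines, a called log2 difference of 4.28 (SE 0.87, adjusted p = 0.054). Mt4 passed the filter only through the male lines and lay below the floor of 3 reads in the female lines. The size of its difference is therefore poorly fixed. Srxn1, an oxidative stress gene under NRF2, was lower in the male lines (-0.71, SE 0.14).

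In fetal liver 0 of 8 members were called, beside 4.64% of 12930 genes (3.81% higher and 0.828% lower in males), and 3 members had an unadjusted p under 0.05. Those 3 had small differences past the adjusted p alone. Slc39a5 was lower in males by 0.31 on the log2 scale (log2 difference -0.31, SE 0.07, adjusted p = 0.0010), with 80.7 to 105 CPM in males and 97.6 to 158 CPM in females. Mtf1 (0.27, SE 0.07, adjusted p = 0.0025) and Slc39a14 (0.26, SE 0.08, adjusted p = 0.015) were higher in males, with overlapping ranges. The highest Slc39a5 value, 158 CPM, was that of female 14, which had 988 CPM of summed intestine markers against a fetal median of 7.45 CPM, and without the 5 livers with such markers Slc39a5 differed by -0.29 (adjusted p = 0.0012). The share of reads outside genes was 39.9% to 49.0% among males and 34.1% to 38.1% among females, without overlap. With that share as a covariate the Mt1 difference turned from -0.19 (SE 0.15) to 0.52 (SE 0.30, adjusted p = 0.92), and the genes called over all fell from 600 to 9. Sex and this property of the libraries therefore cannot be told apart in fetal liver.

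**Figure D4:**
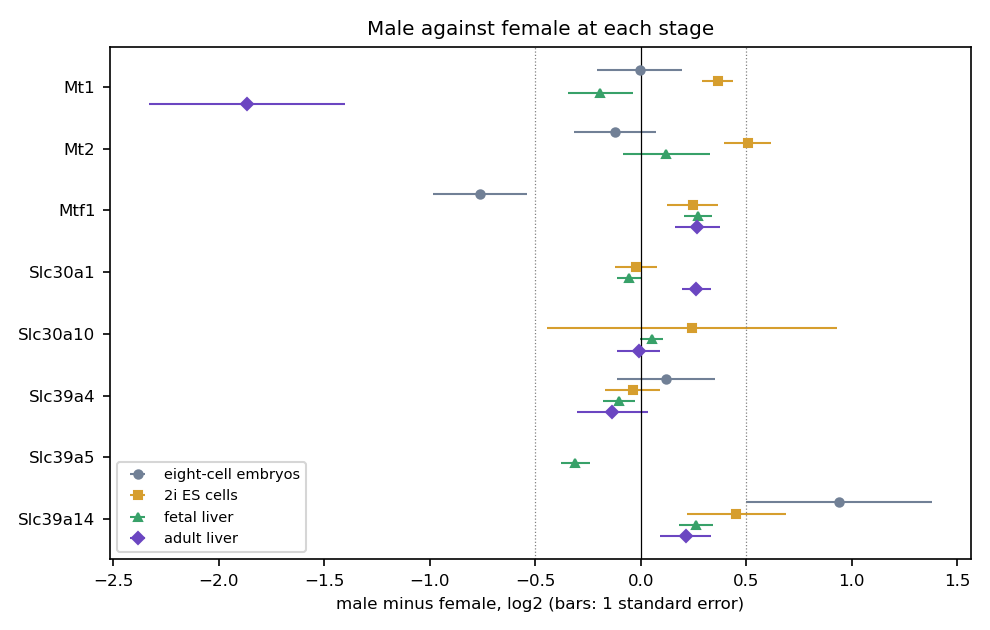
Log2 difference of male minus female for the 8 members at each stage, with bars of 1 standard error and dotted lines at 0.5 in either direction. Genes that did not pass the filter at a stage have no point there, and the adult difference in Mt1 is the largest shown.

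In adult liver Mt1 was lower in males. Of 6 members tested 1 was called, lower, where 9.49% of 10372 genes were called, 6.48% lower and 3.01% higher. Mt1 had 19.1 to 75.9 CPM in the 12 females, with a median of 35.1 CPM. The 12 males fell into separate clusters. Males 6, 9 and 11 had 45.1, 33.6 and 30.3 CPM, within the female range, and the other 9 had 1.60 to 5.33 CPM, below every female. The log2 difference over all livers was -1.87 (SE 0.46, adjusted p = 0.0045), or 3.64-fold. It was -2.45 (SE 0.49, adjusted p = 0.0029) among the 16 livers with 40% or more of mapped reads on genes, and -0.69 (SE 0.92, adjusted p = 0.69) among the 8 under 40%, which include males 6 and 11. Mt2 showed the same clusters: males 6, 9 and 11 had 37, 29 and 13 reads, or 16.7, 7.79 and 8.21 CPM, the other males had 0 to 0.826 CPM, and the females had 1.83 to 8.20 CPM. Mt2 was too low for the filter, and tested without it gave -0.67 (SE 0.64, adjusted p = 0.51). Slc30a1 (0.26, SE 0.07, adjusted p = 0.0046) and Mtf1 (0.27, SE 0.11, adjusted p = 0.062) were slightly higher in males, short of the fold threshold.

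Males 6, 9 and 11 also had the most Slc39a14 of all 24 adult livers. Their values were 358, 367 and 325 CPM, against 165 to 252 CPM in the other males and 179 to 239 CPM in the females. Of the acute phase genes, only Saa1, Saa2, Lcn2 and Orm2 were set out liver by liver. Saa1 and Saa2, which encode serum amyloid A, were highest among males in these same livers. Saa1 had 68.5 to 249 CPM against 11.8 to 30.8 CPM, and Saa2 had 17.2 to 112 CPM against 3.03 to 16.2 CPM. The lowest of the 3 for Saa2, male 6, lay within the female range of 2.77 to 17.19 CPM. Lcn2 and Orm2 were high in only some of them. Of the glucocorticoid-induced genes, Fkbp5, Tsc22d3, Zbtb16, Per1, Sgk1, Dusp1 and Tat each had a range that overlapped with the other males. Zbtb16 had 69.9 to 98.9 CPM in the 3 livers, against 8.54 to 79.8 CPM with a median of 18.8 CPM in the other males. Ranges of the other members overlapped too, with Slc30a1 at 68.0 to 82.7 CPM against 63.2 to 89.2 CPM and Mtf1 at 23.99 to 37.9 CPM against 20.4 to 30.8 CPM. These clusters were noticed in the values, carry no label and were not tested. The share of all genes that separate these 3 livers from the other males is not given here.

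The male-female difference itself differed between adult and fetal liver for 2 of 8 members, beside 13.7% of 13026 genes tested for the interaction of stage and sex (5.19% higher and 8.53% lower). For Mt1 it was -1.65 on the log2 scale (SE 0.44, adjusted p = 0.0044). The other was Slc39a5, at -0.97 (SE 0.36, adjusted p = 0.041), but it passed the filter only through fetal liver and had 0 to 5 reads in adult males and 0 to 9 in adult females, around the floor of 3 reads, so no change in its sex difference is read from this value. Among adult livers under 40% of mapped reads on genes neither was called, with -0.48 for Mt1 and -0.23 for Slc39a5. Slc30a1 moved the opposite way by 0.36 (SE 0.09, adjusted p = 0.0021), under the fold threshold. In fetal liver sex cannot be told apart from the share of reads outside genes, and no interaction was tested with that share as a covariate.

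Some genes of metal and stress handling were also called between adult males and females, where 9.49% of all genes were. Among genes regulated by MTF1, Ndrg1 (-1.27, SE 0.17) and Sepw1 (-0.52, SE 0.10), a selenoprotein gene, were lower in males. Slc39a10 (0.52, SE 0.15), which MTF1 represses in textbook accounts, was higher, and Gclc was not called. Any part of MTF1 in these differences was not tested. Of 14 other zinc transporter genes tested, 1 was higher, the same Slc39a10, and 0 lower, with a median of 0.10 beside -0.00094 over all genes. Nqo1, an NRF2 target, was 1.41 lower in males (log2 difference -1.41, SE 0.16), the only 1 of 5 in its list. Acute phase genes split, with Saa1 (1.36, SE 0.46) and Socs3 (1.01, SE 0.40) higher in males and Orm2 (-1.21, SE 0.35) and Hamp (-1.01, SE 0.19), the gene of the iron hormone hepcidin, lower. For Saa1, the 3 males with the most Mt1 had 68.5 to 249 CPM. The other 9 males had 11.8 to 30.8 CPM, which overlapped the 8.32 to 24.5 CPM of the females. Whether Saa1 differs between the sexes without those 3 males was not tested. Of 7 glucocorticoid-induced genes, Fkbp5 alone was called, lower in males (-1.25, SE 0.28). Summed erythroid markers were 154.6 to 195.5 CPM in adult males and 15.4 to 45.0 CPM in adult females, most of it Alas2. Summed Kupffer cell markers were 238 to 462 CPM in males and 334 to 733 CPM in females, and the part of either in these differences, Mt1 included, was not tested.

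Mt1 and Mt2 rose and fell together from 1 fetal liver to the next. Over 24 fetal livers, after the mean of each sex was subtracted from log2 (CPM + 0.5), Pearson's r was 0.983 and Spearman's rho 0.983, each with a two-sided permutation p of 1e-05, the smallest that 100000 resamples can give (adjusted p = 0.00014 over the 14 correlations computed). The value was 0.982 without the 2 livers farthest from the Mt1 median, 0.975 in males and 0.988 in females. Slc39a4 ran against Mt1 (r = -0.602, permutation p = 0.00185; rho = -0.608, permutation p = 0.0020; adjusted p = 0.013 for r and 0.014 for rho), with -0.654 in males and -0.572 in females, and without the 2 farthest livers r was -0.487 (permutation p = 0.022). The other 5 members gave r from -0.407 to 0.434, none past adjustment. In the 12 adult females Mt1 and Mt2 gave r = 0.202 (permutation p = 0.53) and rho = 0.231 (permutation p = 0.47, adjusted p = 0.62 for r), on 5 to 20 reads of Mt2 a liver, and r = 0.48 without the 2 farthest. No r is given for adult males because they fall into clusters.

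**Figure D5:**
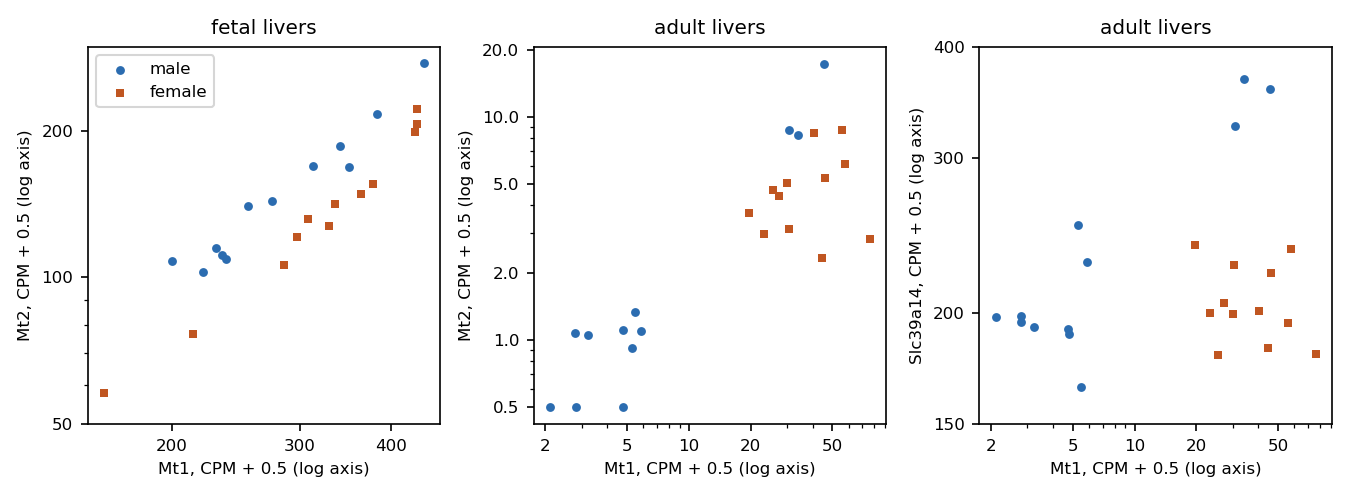
Mt1 against Mt2 in fetal livers (left), Mt1 against Mt2 in adult livers (middle) and Mt1 against Slc39a14 in adult livers (right), as CPM + 0.5 on log axes, with circles for males and squares for females. Fetal livers form a line for each sex, while 3 adult males lie apart from the other 9 in both adult panels.

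The genes whose pattern was most like that of Mt1 were ranked by Pearson's r of sex-centred log2 (CPM + 0.5) over all genes kept in a stage. In 24 fetal livers they included Mt2 (0.983), Slc2a4 (0.897), Ppox (0.887) and Grina (0.873). In 12 embryos they were Mt2 (0.928), Rpl27 (0.922), Atp5l (0.922), Slbp (0.920) and Rpl27a (0.912), genes that share their libraries' depth and composition with Mt1. In adult livers the leading genes were Papd7, Steap4, Srrt, Slc39a14 and 1190005F20Rik, by an r that pools the sexes and includes the male clusters. Each had a range in males 6, 9 and 11 apart from that of the other males. Choosing genes by likeness to Mt1 in these same livers favours such a separation, so it is not independent evidence. Steap4, a metalloreductase gene, had 399 to 811 CPM in males 6, 9 and 11 and 148 to 246 CPM in the other males.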

How the data were processed

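RNA-seq counts of 12 eight-cell embryos, 4 ES cell lines, 24 fetal and 24 adult livers were analysed. The authors aligned reads to mm10 with TopHat2 (2.0.4) and Bowtie2 (2.1.0), used SAMtools (0.1.18), removed duplicates with Picard and deposited whole-number counts per gene from HTSeq, whose strand setting is not given in the sources used here. Duplicate removal acts most on short, deeply covered transcripts, and Mt2 reached a median of 2.79 reads per base of merged exons in ES cells. The 5 summary rows of each file, which name no gene, were left out. Their share of reads, as the share outside genes, enters only as a covariate. Mapped reads from the study's sequencing statistics served only to sort adult libraries at 40% of mapped reads on genes.

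Counts were tested with edgeR (4.0.16, R 4.3.3; filterByExpr, TMM, robust quasi-likelihood F test) across all genes, with Benjamini-Hochberg adjustment, and SE taken as the absolute log2 difference over the square root of F. Sex and interaction calls needed an adjusted p under 0.1 and an absolute log2 difference above 0.5, and stage calls an adjusted p under 0.05 and above 1. CPM used the TMM factors of each stage, so levels of different stages are set side by side only. Correlations used log2 (CPM + 0.5) and 100000 permutations in Python (3.11.15) with scipy (1.17.1). The steps were tested on simulated data. DESeq2 (1.42.0), its size factors, library totals, no filter, a replicate block and leaving out samples were tried as alternatives. The pooled adult correlation planned for Mt1 is not given, because the males fell into clusters. Besides the 8 members, genes named were those past the thresholds in fixed lists, at most 3 a direction, and the 5 most like Mt1 (some genes that met this rule are not reported here); genes singled out beyond this rule were chosen after their values were seen. The members and lists were chosen with earlier results of these data known.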

Additional observations from a re-analysis of the deposited data

Results flagged for a closer look

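The male minus female difference of Mt1 changed by -1.65 on the log2 scale from fetal to adult liver, by the interaction test of edgeR (SE 0.44, adjusted p = 0.0044). The corresponding value for Slc39a5 was -0.97 (SE 0.36, adjusted p = 0.041), but this gene passed the filter only through fetal liver and had 0 to 9 reads in an adult liver, so no change is read from it. Both were drawn to attention because an effect of sex differed between the 2 stages.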

How the results depend on the processing

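Counts of called members were 1 rather than 0 in embryos with DESeq2, 2 rather than 1 in adult liver without the filter, and 0 among adult livers under 40% for both sex and interaction. Leaving out 1 sample gave 0 to 3 called members in ES cells, 0 in embryos, 1 in adult liver, 3 for fetal liver against ES cells and 3 to 4 for ES cells against embryos. The CV of Mt1 in male ES cells was 0.0503% by library totals and 0.765% by TMM. Differences near 0 changed sign as follows, and the cause was not tested. With DESeq2 size factors and with DESeq2, Mt1 in embryos became 0.00053 and 0.00049, Slc30a10 in adults 0.0014 and 0.0032, adult against fetal Mtf1 -0.068 and -0.070 and Slc30a10 -0.086 and -0.086, fetal liver against ES cells Mt2 0.041 and 0.044, and ES cells against embryos Mt2 0.17 and 0.17; the interaction of Slc39a4 became -0.011 with size factors. Without the filter Slc30a10 in adults became 0.019, the interaction of Slc39a14 0.0093, adult against fetal Mtf1 -0.021 and Slc30a10 -0.039, and fetal liver against ES cells Mt2 0.0083. With library totals adult against fetal Mtf1 became -0.54 and Slc30a10 -0.56, and ES cells against embryos Mt2 0.21. With the share outside genes as a covariate, fetal Mt1 became 0.52, Slc30a1 0.025 and Slc30a10 -0.12. Among adult livers under 40%, Slc30a10 became 0.17 and Slc39a4 0.25, and the interactions of Mt2 0.28, Slc30a10 0.14 and Slc39a14 0.16. Among those at 40% or more, the interaction of Slc39a4 became -0.19, and adult against fetal Mtf1 -0.023 and Slc30a10 -0.032. Without the 5 fetal livers, chosen after seeing the data, the interactions of Slc30a10, Slc39a4 and Slc39a14 became 0.040, -0.051 and 0.016. Leaving out 1 sample gave -0.097 to 0.081 for Mt1 in embryos, -0.053 to 0.0072 for Slc30a1, -1.24 to 0.96 for Slc30a10 and -0.18 to 0.11 for Slc39a4 in ES cells, -0.055 to 0.031 for Slc30a10 in adults, and -0.050 to 0.089 for Mt2 between fetal liver and ES cells.

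Replicate numbers were not taken to pair samples, since the correlations of their deviations were small. They ran from -0.149 to 0.069 over 24 adult and fetal pairs, 0 of them best with its own number. Over 4 pairs of fetal liver and ES cells they ran from -0.0445 to 0.0689, with 1 best with its own number. Over 4 pairs of ES cells and embryos they ran from 0.0205 to 0.033, but all 4 were best with their own number, which was not followed up. With the replicate block 3 members and 5386 genes were called between adult and fetal liver, and Slc30a10 became -0.0043. Over all genes, calls between male and female were 64 with DESeq2 against 24 in embryos, 1057 without the filter against 600 in fetal liver (9 with the covariate), 1518 against 984 in adult liver, and 0 to 3070 without 1 ES cell line against 1205; adult against fetal liver gave 8203 without the filter against 5387. At these depths Mt2 and Slc39a5 did not pass the filter in adult liver, nor Slc30a10, Slc30a1 and Slc39a5 in embryos.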
